A study of Mus musculus with 94 samples.

Results

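The genes described here make, carry and break down the monoamines serotonin, dopamine and noradrenaline. They are Tph2, Th, Ddc and Dbh (synthesis), Slc6a4, Slc6a3 and Slc18a2 (transport), Maoa and Maob (breakdown) and Fev (a transcription factor of serotonin neurons). The members are every probe set whose platform annotation names 1 of these 10 genes alone, which gave 13 of the 45101 probe sets on the array and 9 of the 10 genes. Fev had no such probe set and therefore no value. The genes were chosen by their function with earlier results of these arrays known, so that the tests describe these arrays and are no independent support. The measured values that the choice rests on directly are the liver transcripts of 1 array, MGMT.MAM.168.343 (arrays are named by genotype, agent, hours and animal number), which was left out and leaves 93 of 94 arrays.

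Serotonin, dopamine and noradrenaline are made by small clusters of neurons. Serotonin neurons lie in the raphe nuclei of the brainstem, dopamine neurons mainly in the ventral midbrain, with further groups in the hypothalamus and olfactory bulb, and noradrenaline neurons in the locus coeruleus and other hindbrain groups. Their axons reach most of the brain while their transcripts stay largely in the cell bodies, and so the level of Tph2 or Th in a piece of brain depends on how many of those cell bodies it holds. In RNA of a whole piece of tissue, fewer cells of a type and less RNA per cell cannot be told apart.

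Brain RNA was measured on Affymetrix mouse genome arrays, 1 array per animal, from the right side of the brain of male C57BL6 mice aged 11 weeks. The mice were wt or Mgmt-/-, which lack the DNA repair enzyme O6-methylguanine methyltransferase on the same background. Each received 1 intraperitoneal injection of vehicle (dilute acetic acid in saline) or of the alkylating cycad toxin methylazoxymethanol (MAM), and the brain was taken 6, 24, 48 or 168 hr later. The 16 groups of genotype, agent and time held 6 arrays each, except wt vehicle at 48 hr, wt MAM at 168 hr and, without MGMT.MAM.168.343, Mgmt-/- MAM at 168 hr, which held 5. The experiment was run in 2 laboratories, and the animal numbers form 2 sets (45 arrays in set 1 and 48 in set 2), taken here to be those laboratories. The labels do not say which set belongs to which laboratory.

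The 93 arrays carried the markers of brain tissue, with a median log2 value over 6 neuronal genes between 11.75 and 12.17. The same median was 4.60 on MGMT.MAM.168.343, where 12 liver genes had a median of 13.59 (4.37 to 6.47 on the other arrays). The Mgmt probe set did not separate the genotypes, at 5.74 in wt (5.49 to 6.21, n = 46) and 5.72 in Mgmt-/- (5.09 to 6.45, n = 47), so that the genotype labels have no check from it. Of 4278 pairs of arrays, WT.VEH.24.707 and WT.MAM.6.727 stood closest, with a standard deviation of 0.0905 between their values over all probe sets against 0.151 for the next pair, and no 2 arrays held identical values. WT.MAM.6.727 was also close to WT.VEH.24.709 (0.153) and WT.VEH.24.711 (0.154), at ranks 5 and 6 of all pairs. Whether a sample was mislabelled or split was not tested. Without WT.VEH.24.707 and WT.MAM.6.727, 4 in place of 5 member probe sets differed among the 16 groups (Dbh 1447592_at was lost). The calls for the 10 genes in the comparisons of genotype and agent stayed the same in number. Those comparisons were fitted at each time alone and their calls lay at 48 and 168 hr. Neither array enters there, so that leaving them out could not change these calls. An index of RNA quality, the log2 excess of 3' over 5' signal averaged over the Gapdh and Actb controls, was on average 0.336 in wt vehicle, 0.383 in wt MAM, 0.472 in Mgmt-/- vehicle and 0.582 in Mgmt-/- MAM arrays. It therefore moved with genotype and agent, and its values stand beside the genotype differences.

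The DNA just before the start of Tph2, Slc6a4 and Th is shown first, because Tph2 and Slc6a4 varied together most closely of all the pairs and Th varied with them more weakly. The windows are the 250 bases before the RefSeq start on GRCm38.p6, written 5′ to 3′ on the gene's strand, and capitals mark GGAA or its complement TTCC, the core letters bound by ETS factors such as Fev, and TGACGTCA, the cAMP response element. The Tph2 window is chr10:115185023-115185272 on the minus strand, that of Slc6a4 is chr11:76998347-76998596 on the plus strand and that of Th is chr7:142899996-142900245 on the minus strand.
Tph2: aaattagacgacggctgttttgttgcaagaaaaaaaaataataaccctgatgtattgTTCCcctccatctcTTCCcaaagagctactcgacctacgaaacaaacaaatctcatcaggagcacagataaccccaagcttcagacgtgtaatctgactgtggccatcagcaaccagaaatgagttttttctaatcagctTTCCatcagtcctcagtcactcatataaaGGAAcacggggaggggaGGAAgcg
Slc6a4: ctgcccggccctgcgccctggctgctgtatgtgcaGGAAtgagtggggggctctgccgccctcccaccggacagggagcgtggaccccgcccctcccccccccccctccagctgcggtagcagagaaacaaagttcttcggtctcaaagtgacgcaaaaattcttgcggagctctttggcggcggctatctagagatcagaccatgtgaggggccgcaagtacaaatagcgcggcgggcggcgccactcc
Th: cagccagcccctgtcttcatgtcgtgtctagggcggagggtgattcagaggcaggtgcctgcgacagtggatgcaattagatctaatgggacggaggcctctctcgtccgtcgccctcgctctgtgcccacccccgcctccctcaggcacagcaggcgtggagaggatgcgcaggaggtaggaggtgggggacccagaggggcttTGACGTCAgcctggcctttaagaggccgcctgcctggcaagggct
On both strands together, GGAA occurred 5 times in the Tph2 window, 1 time in that of Slc6a4 and not in that of Th, which alone held TGACGTCA, 45 bases before the start. GGAA is common, with at least 1 match in 93.4% of 32851 RefSeq windows of this length, whereas TGACGTCA occurred in 1.55%. The windows of Fev, Dbh and Maoa held 2 GGAA matches each, those of Slc18a2 and Slc6a3 held 1, and the pair of Ddc windows held 0 and 3. The longer ETS motif CCGGAA occurred in 12.03% of all windows and in none of these. The matches describe letters only, and binding was not measured.

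Among the synthesis enzymes, Tph2 and Th catalyse the rate-limiting steps of serotonin and of catecholamine synthesis, Ddc removes the carboxyl group in both pathways, and Dbh turns dopamine into noradrenaline. Tph2 (chr10:115078641-115185022, GRCm38.p6) was dim and very uneven, with log2 values from 3.17 to 6.53 and a mean of 4.58 over the 93 arrays. Its standard deviation between animals of the same group and number set was 0.87, larger than that of 99.97% of all probe sets. Th (chr7:142892779-142899995) ranged from 6.21 to 8.03 around a mean of 7.04, with a standard deviation of 0.32 within group and number set. The brighter probe set of Ddc (chr11:11814101-11898144), 1426215_at, ranged from 6.87 to 8.95 (mean 8.11) with a standard deviation of 0.36, and the other, 1430591_at, had a mean of 3.99. The 3 probe sets of Dbh (chr2:27165507-27183204) had means of 6.96, 5.82 and 5.20 and standard deviations from 0.16 to 0.25.

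The transporters return released monoamines to the neuron or load them into vesicles. Slc6a4 (chr11:76998597-77032343), the serotonin transporter, ranged from 4.59 to 6.74 (mean 5.39) with a standard deviation of 0.51 within group and number set, larger than that of 99.8% of probe sets. On MGMT.MAM.168.343, with its liver transcripts, Slc6a4 read 5.79, above its mean on the 93 arrays. Tph2 read 3.06 there, close to its lowest value of 3.17 on the 93 arrays. Slc18a2 (chr19:59260878-59296012), the vesicular transporter shared by all monoamine neurons, ranged from 3.75 to 6.94 (mean 5.75) with a standard deviation of 0.47, larger than that of 99.7%. Slc6a3 (chr13:73536128-73578672), the dopamine transporter, ranged from 5.31 to 7.26 (mean 6.67) with a standard deviation of 0.34. Maoa (chrX:16619698-16687812) and Maob (chrX:16709281-16817366) oxidise monoamines and are also made outside monoamine neurons. Their standard deviations were 0.14 for Maoa 1428667_at, 0.31 for Maoa 1442676_at and 0.16 for Maob.

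**Figure D1:**
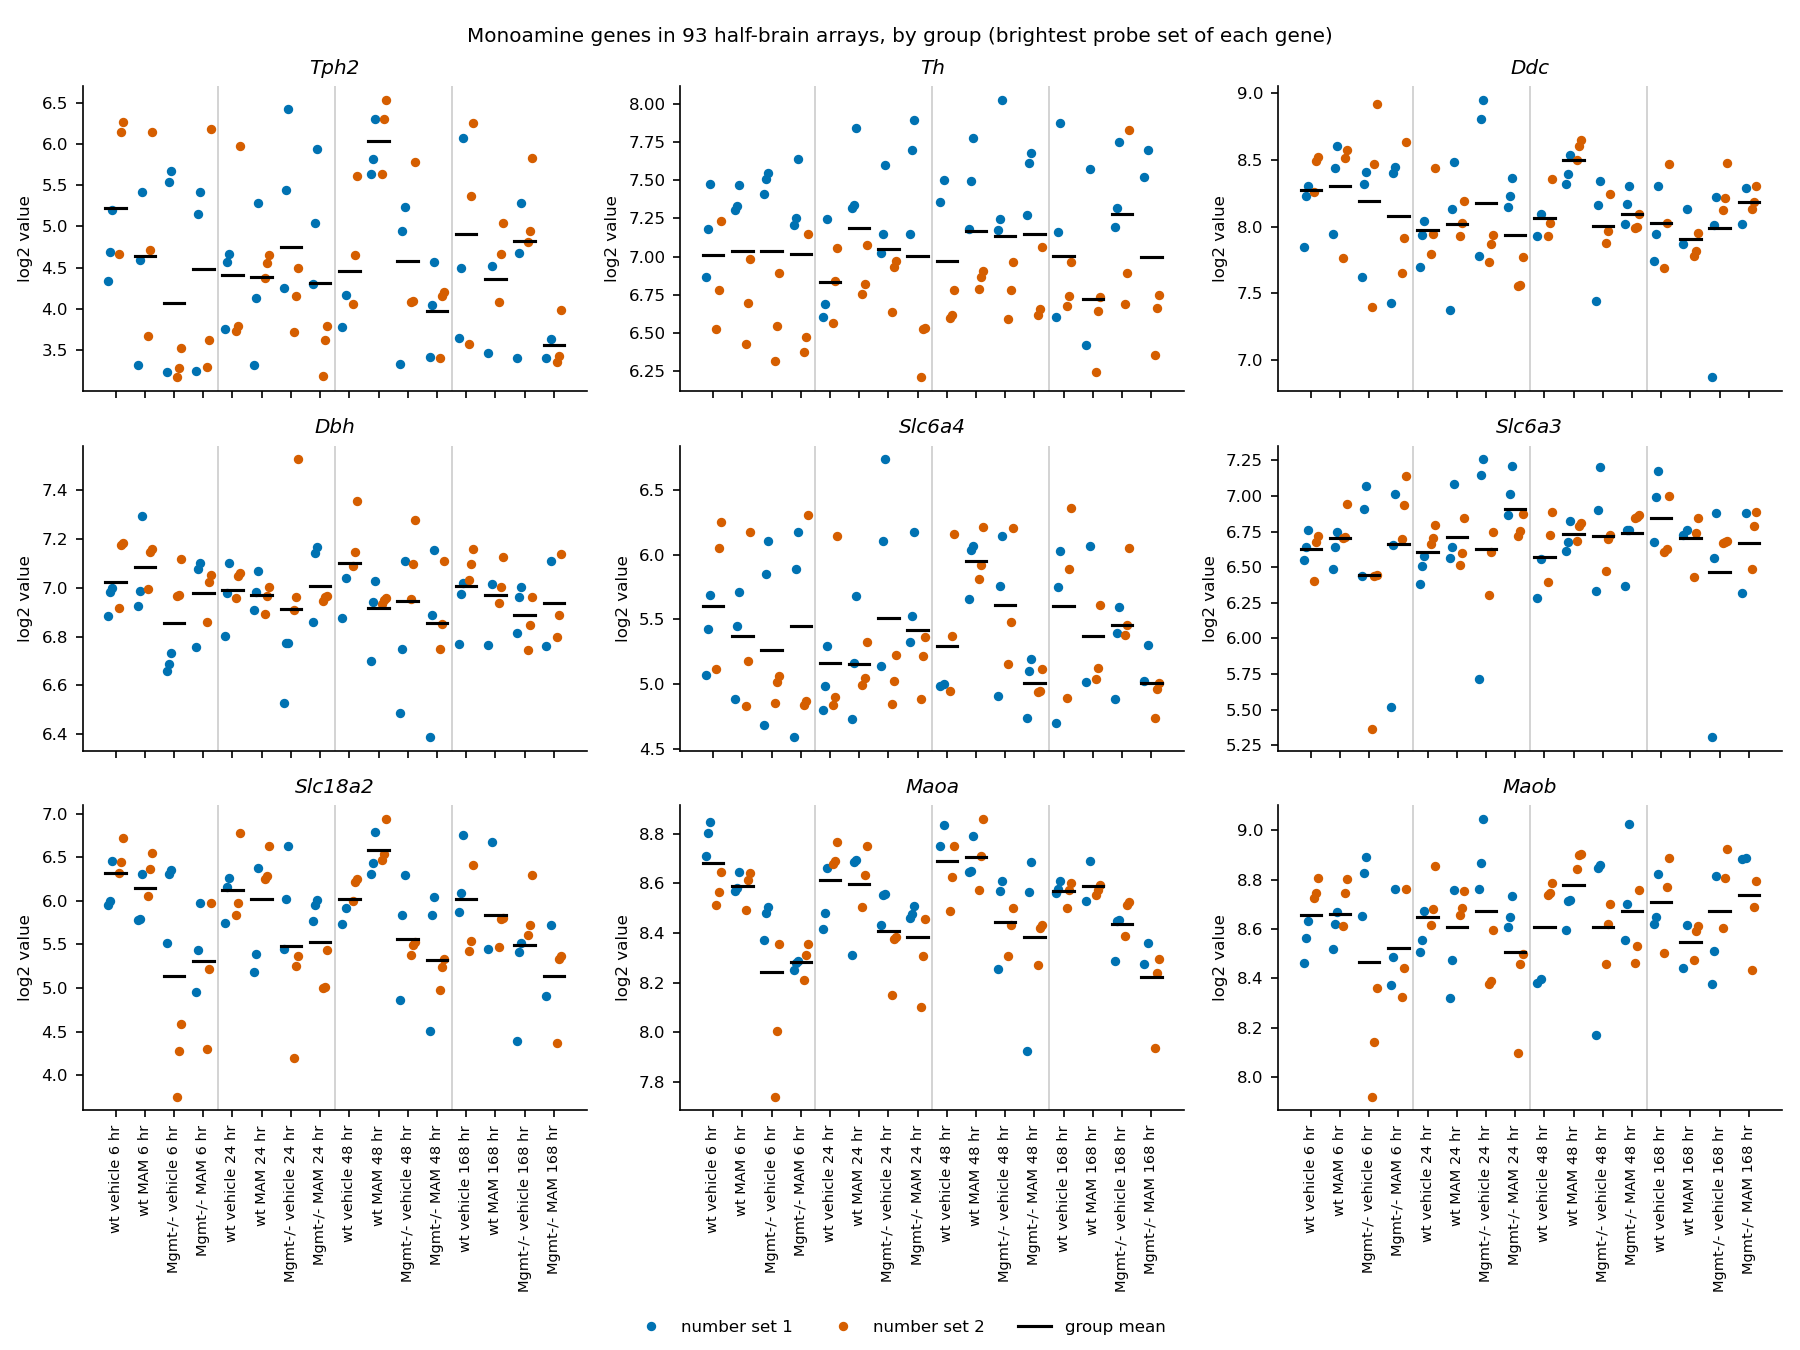
Log2 values of the brightest probe set of each gene on the 93 arrays (y axes) in the 16 groups of genotype, agent and time (x axis), with number set 1 in blue, number set 2 in orange and bars at the group means. Tph2 and Slc6a4 scatter widely within most groups, the 6 wt MAM arrays at 48 hr lie at 5.63 or above for Tph2, and Th sits lower in number set 2.

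The first question was whether the 10 genes differed over the 16 groups. In a moderated F test over all probe sets, 5 of the 13 member probe sets differed among groups, against 23.3% of all 45101 probe sets, a share to read the members' count against. Tph2 had the widest range of group means among them, from 3.57 in Mgmt-/- MAM brain at 168 hr to 6.04 in wt MAM brain at 48 hr, and its range of 2.47 was wider than that of 99.98% of probe sets (adjusted p = 0.0233). Slc18a2 ran from 5.13 in Mgmt-/- vehicle brain at 6 hr to 6.58 in wt MAM brain at 48 hr (adjusted p = 0.000297). Maoa 1428667_at (adjusted p = 1.11e-07), Maoa 1442676_at (adjusted p = 8.92e-10) and Dbh 1447592_at (adjusted p = 0.0352) also passed. Slc6a4, Ddc, Th, Slc6a3 and Maob did not pass, with adjusted p values from 0.251 (Slc6a4) to 0.798 (Slc6a3).

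The Slc18a2 and Maoa means lay lower in Mgmt-/- than in wt arrays with either agent. Slc18a2 averaged 6.12 in wt vehicle (5.43 to 6.78, n = 23) and 6.16 in wt MAM arrays (5.18 to 6.94, n = 23). It averaged 5.42 in Mgmt-/- vehicle (3.75 to 6.63, n = 24) and 5.33 in Mgmt-/- MAM arrays (4.30 to 6.05, n = 23). The 4 ranges overlapped, and the Mgmt-/- ranges with either agent reached below the lowest wt value. Maoa 1428667_at averaged 8.64 in wt vehicle, 8.62 in wt MAM, 8.38 in Mgmt-/- vehicle and 8.32 in Mgmt-/- MAM arrays. The index of 3' over 5' signal was higher in Mgmt-/- arrays with either agent, and with the index as a covariate 1 of the 13 probe sets, Maoa 1428667_at, still differed among the 16 groups (adjusted p = 0.00762).

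The second question was whether MAM changed these genes within a genotype. Each time point was fitted alone, and a probe set was called at an adjusted p under 0.05 with a change over 1.3-fold, after leaving out probe sets whose effects differed between the number sets. That filter kept 7, 4, 12 and 12 of the 13 member probe sets at 6, 24, 48 and 168 hr. For MAM against vehicle in Mgmt-/- brain, 0 of them were called at any time, against 1.83, 0.699, 0.461 and 0.493% of all probe sets kept at the 4 times. At an unadjusted p under 0.05, without the filter, 7 of 52 tests passed. For MAM against vehicle in wt brain, 0 members were called, as were 0% of all probe sets at each time, and 6 of 52 passed at an unadjusted p under 0.05, all of them at 48 hr. An ordinary linear model called 0 members in both comparisons. The largest difference in wt brain was that of Tph2 at 48 hr, 1.61 ± 0.34 (SE) on the log2 scale, which missed the test (adjusted p = 0.0973, limma) and passed it without WT.VEH.48.115.

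The effect of MAM on the serotonin genes Tph2 and Slc6a4 differed between the genotypes at 48 hr. Tph2 in wt vehicle brain was 3.78, 4.18, 4.06, 4.66 and 5.61, and in wt MAM brain its lowest, median and highest values were 5.63, 6.06 and 6.53. In Mgmt-/- brain they were 3.34, 4.52 and 5.79 with vehicle and 3.41, 4.11 and 4.57 with MAM. All 6 wt MAM arrays lay above the 5 wt vehicle arrays, whereas the Mgmt-/- groups overlapped.

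The change with MAM in Mgmt-/- brain minus that in wt brain was -2.22 ± 0.47 (SE) for Tph2, 4.65-fold (adjusted p = 0.0186, limma), and was -2.43 and -2.11 in number sets 1 and 2. For Slc6a4 the values were 4.99, 4.998, 4.95, 5.37 and 6.16 in wt vehicle brain and 5.66, 5.98 and 6.21 (lowest, median and highest) in wt MAM brain. They were 4.90, 5.62 and 6.21 in Mgmt-/- vehicle brain and 4.74, 5.02 and 5.20 in Mgmt-/- MAM brain. The wt MAM and Mgmt-/- MAM arrays of Slc6a4 did not overlap. The interaction was -1.28 ± 0.28 (SE) for Slc6a4 (adjusted p = 0.0256, limma), with -1.52 and -1.11 in the number sets. These were 2 of 12 member probe sets kept at 48 hr, against 0.9% of all probe sets. At 6, 24 and 168 hr 0 members were called, against 0.13, 0.0509 and 0.0718% of all probe sets. The interaction of Tph2 was called without each array in turn, and that of Slc6a4 was lost without WT.VEH.48.113, WT.MAM.48.137, MGMT.VEH.48.315, WT.VEH.48.717 or WT.MAM.48.739. An ordinary linear model called neither, and the index as a covariate, without the filter, gave -1.72 for Tph2 (adjusted p = 0.204) and -1.05 for Slc6a4 (adjusted p = 0.227).

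With MAM, Mgmt-/- brain at 48 hr had less RNA of several monoamine genes than wt brain. Of the 12 member probe sets kept, 5 were lower and 1 was higher, against 9.33% of all probe sets called in either direction. At 6 and 24 hr 0 members and at 168 hr 1 member were called, against 7.29, 5.28 and 1.52% of all probe sets. The filter left out 6 and 9 of the 13 member probe sets at 6 and 24 hr, and without it Maoa 1442676_at was also lower at 6 hr (-0.70 ± 0.19) and 24 hr (-0.65 ± 0.18) and Dbh 1447592_at was higher at 24 hr (0.51 ± 0.12). Tph2 was lower by 4.19-fold (-2.07 ± 0.32 SE on the log2 scale, adjusted p = 6.2e-05, limma), with no overlap between the 6 wt and the 6 Mgmt-/- arrays. Slc6a4, again without overlap, was lower by 1.93-fold (-0.94 ± 0.20, adjusted p = 0.00138).

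Slc18a2 had lowest, median and highest values of 6.31, 6.50 and 6.94 in wt MAM brain at 48 hr and 4.50, 5.29 and 6.05 in Mgmt-/- MAM brain. The groups did not overlap, and Slc18a2 was 2.39-fold lower in Mgmt-/- brain (-1.26 ± 0.21, adjusted p = 0.000167, limma). Ddc was 8.32, 8.52 and 8.65 in wt and 7.99, 8.06 and 8.31 in Mgmt-/- brain, a 1.33-fold difference (-0.41 ± 0.11, adjusted p = 0.0132). Maoa 1442676_at was 7.14, 7.34 and 7.42 in wt and 5.42, 6.33 and 6.51 in Mgmt-/- brain, 2.17-fold lower (-1.12 ± 0.18, adjusted p = 0.000123). Neither gene's groups overlapped, and the other Maoa probe set, 1428667_at, had a difference under 1.3-fold (-0.32 ± 0.10, adjusted p = 0.0234). Dbh 1447592_at was the 1 member that was higher in Mgmt-/- brain, at 5.84, 5.98 and 6.28 against 5.37, 5.48 and 5.56 in wt brain (0.54 ± 0.12, adjusted p = 0.00287), whereas Dbh 1450670_at had a difference under 1.3-fold (0.34 ± 0.08, adjusted p = 0.0047) and Dbh 1459848_x_at one of -0.06 ± 0.11.

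At 168 hr with MAM the single call was again Maoa 1442676_at. It was 6.52, 7.26, 6.59, 6.69 and 6.77 in wt brain and 5.54, 6.53, 5.51, 6.08 and 6.37 in Mgmt-/- brain, 1.69-fold lower (-0.76 ± 0.18, adjusted p = 0.0211, limma), with 1 Mgmt-/- array inside the wt range. The catecholamine genes Th and Slc6a3 did not pass at 48 hr, with Mgmt-/- minus wt values of -0.02 ± 0.12 and 0.01 ± 0.12 (SE, adjusted p = 0.930 and 0.960), and Maob was left out by the filter (-0.11 ± 0.11). Beside all of these values, the index did not overlap between the groups at 48 hr, at 0.249 to 0.421 in wt MAM and 0.487 to 0.649 in Mgmt-/- MAM arrays. With the index as a covariate 0 of the 7 calls were left, and Tph2 differed by -1.16 ± 0.53 (SE, adjusted p = 0.322 without the filter).

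Markers of other cell types and regions moved in the same comparison of Mgmt-/- with wt brain at 48 hr with MAM. A listed gene counts as lower or higher if any of its probe sets was called, and the called probe set with the largest difference is given. The 9.33% of all probe sets called is a share per probe set and not per gene. Of 8 astrocyte genes 3 were lower, with the gap junction gene Gja1 (-2.09 ± 0.15, adjusted p = 1.19e-09, limma) as far down as Tph2, and Slc1a2 (-0.75 ± 0.13) and Fgfr3 (-0.67 ± 0.13) less so. Gja1 was also lower with vehicle (-1.48 ± 0.16, adjusted p = 3.77e-06). Of 6 microglial genes Cx3cr1 (-0.81 ± 0.17) and P2ry12 (-0.60 ± 0.16) were lower, and 1 gene each was lower of 6 neuronal (Rbfox3, -0.55 ± 0.12), 6 oligodendrocyte (Mog, -0.40 ± 0.09) and 5 endothelial genes (Cldn5, -0.43 ± 0.14). Of 10 cerebellar genes 5 were lower, from Zic1 (-0.44 ± 0.10) to Zic2 (-0.90 ± 0.11). With vehicle at 48 hr, Mog (-0.42 ± 0.09) and Zic1 (-0.41 ± 0.11) were lower as well, whereas Rbfox3 was higher (0.53 ± 0.12). At 24 hr, Zic2 (-0.50 ± 0.10 with vehicle, -0.68 ± 0.10 with MAM) and Slc1a2 (-0.54 ± 0.15 and -0.73 ± 0.15) were lower with either agent. Of 11 genes of thalamus and dorsal midbrain 4 were lower, led by Slc17a6 (-1.23 ± 0.19) and Tcf7l2 (-0.75 ± 0.12), and of 10 genes of cortex and hippocampus 2 were lower. The median level of the microglial list did not overlap between the groups, at 7.92 to 8.23 on the wt MAM and 6.76 to 7.79 on the Mgmt-/- MAM arrays. Those of the astrocyte list (10.20 to 10.53 and 9.95 to 10.31), the neuron list (11.97 to 12.05 and 11.75 to 12.15) and the cerebellar list (10.72 to 11.13 and 10.49 to 10.88) overlapped. In the interaction at 48 hr, Rbfox3 (-1.09 ± 0.17), Prox1 of the cortex and hippocampus list (-0.79 ± 0.14) and Tfap2b of the noradrenaline neuron list (-0.65 ± 0.15) were called beside Tph2 and Slc6a4. The part of these genes in the monoamine gene differences was not tested.

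In vehicle brain, 0 members were called between the genotypes, against 3.57, 4.21, 3.01 and 0.0874% of all probe sets at 6, 24, 48 and 168 hr. At an unadjusted p under 0.05, without the filter, 11 of 52 tests passed, and an ordinary linear model called 0. Tph2 differed between the genotypes by 0.15 ± 0.34 (SE) at 48 hr with vehicle, where the wt range of 3.78 to 5.61 lay inside the Mgmt-/- range of 3.34 to 5.79. Without the filter, 3 probe sets were called at 6 hr, Slc18a2 (-1.18 ± 0.35), Maoa 1428667_at (-0.44 ± 0.09) and Maoa 1442676_at (-0.78 ± 0.19). For Slc18a2 this rested on number set 2, with -2.29 there and -0.07 in set 1.

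**Figure D2:**
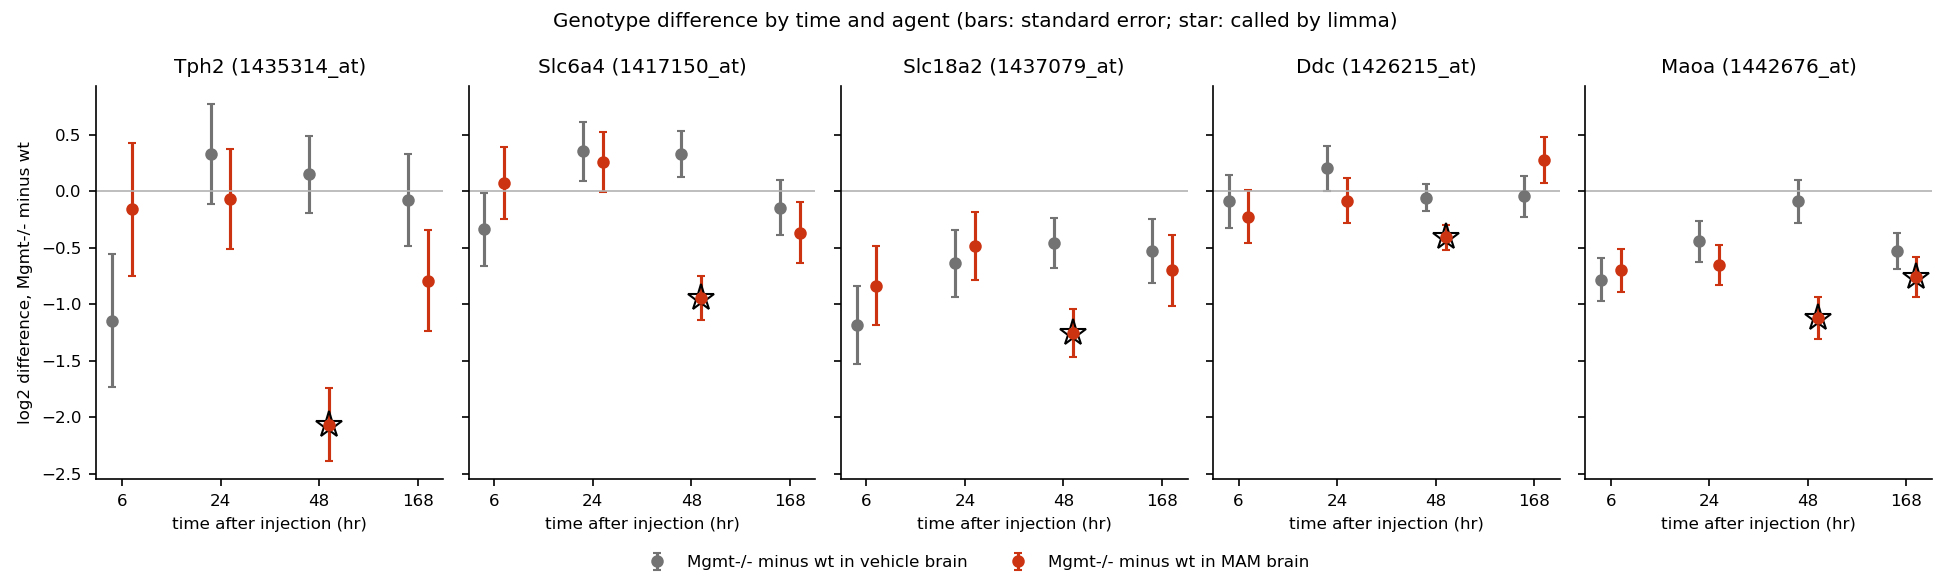
Log2 difference of Mgmt-/- minus wt brain (y axis, bars are standard errors) at each time after injection (x axis) with vehicle in grey and MAM in red, for 5 probe sets, and stars at those called by limma. The 5 are the probe sets called lower at 48 hr with MAM, where they run from -0.41 for Ddc to -2.07 for Tph2. Dbh 1447592_at, called higher there (0.54), and the members not called at that time are not shown. With vehicle at 48 hr Tph2 differs by 0.15.

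Other genes of the monoamine pathway were called in both directions between the genotypes at 48 hr with MAM. Of 7 genes for tetrahydrobiopterin, the cofactor of Tph2 and Th, 1 was lower in Mgmt-/- than in wt brain, Spr (-0.89 ± 0.10, adjusted p = 5.91e-07), and it was also lower with vehicle (-0.96 ± 0.10, adjusted p = 3.33e-06, limma). Of 10 regulators and autoreceptors of serotonin neurons, Lmx1b, a transcription factor of these cells, was higher (0.41 ± 0.11) and the autoreceptor Htr1a was lower (-0.46 ± 0.14). The probe set of Htr1a that gave this value was also lower with MAM at 24 hr (-0.51 ± 0.14). A different Htr1a probe set was lower with MAM at 6 hr (-0.54 ± 0.08) and with vehicle at 24 hr (-0.51 ± 0.08). Of 5 genes of noradrenaline neurons, the transcription factor Hand2 was higher (0.41 ± 0.13). Among 11 genes of midbrain dopamine neurons, Pitx3 was higher (0.52 ± 0.13) while Sncg (-0.72 ± 0.16) and Ret (-0.40 ± 0.13) were lower. Of 12 serotonin receptors 1 was lower (Htr1a again), and of 4 dopamine receptors, 2 adrenergic receptors, 7 further breakdown genes and 8 further transport and histamine genes 0 were called. The median difference was -0.32 over the brightest probe sets of the 9 monoamine genes and between -0.12 and 0.16 over these lists. At 168 hr MAM raised Sult1a1, a sulfotransferase, in Mgmt-/- brain (1.67 ± 0.13) and lowered Qdpr, which regenerates tetrahydrobiopterin (-0.59 ± 0.07).

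The third question was whether the genes differed between the 2 number sets. Of the 13 member probe sets 1 did, Th, against 0.694% of all probe sets. Th averaged 7.36 in set 1 (6.42 to 8.03, n = 45) and 6.74 in set 2 (6.21 to 7.83, n = 48), a difference of -0.61 ± 0.07 (SE, adjusted p = 7.83e-12, limma). The ranges of the sets overlapped. Of the other serotonin and dopamine genes, Tph2 differed by -0.01 ± 0.18, Slc6a4 by -0.07 ± 0.10 and Slc6a3 by 0.01 ± 0.07. Of 7 genes of the olfactory bulb, 5 were also lower in set 2, Cdhr1 (-1.77 ± 0.13), Sp8 (-1.05 ± 0.10), Eomes (-0.91 ± 0.09), Doc2g (-0.90 ± 0.08) and Tbx21 (-0.42 ± 0.05). In the other lists, Aqp1 of the choroid plexus was lower in set 2 (-0.58 ± 0.06) and Avp of the hypothalamus was higher (0.43 ± 0.12). The part of these genes in the Th difference was not tested.

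The fourth question was whether the genes moved together from animal to animal. Each value was taken as its deviation from the mean of its group and number set, and the 9 genes gave 36 pairs, tested by permuting animals within group and number set. Of the 36 pairs, 23 varied together at an adjusted p under 0.05, 0 varied in opposite directions, and 13 did not pass. For each member, r was also taken with 18185 genes outside the members. The share of them with r above 0.3 ran from 4.03% for Tph2 to 27.6% for Maoa. That threshold differs from the permutation test, which pairs passed at r as low as 0.22 (Tph2 and Maoa). The share of outside genes passing the permutation test was not taken, so the 23 pairs have no share under the same test beside them. A passing pair therefore does not by itself set its genes apart from other genes. The median r of the 36 pairs was 0.40 and the lowest -0.02.

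Tph2 and Slc6a4 gave the closest pair, with Pearson's r = 0.93 and Spearman's rho = 0.91 over the 93 arrays (adjusted permutation p = 4e-05, from the smallest p of 1e-05 that the resamples can give). It was 0.91 and 0.95 in number sets 1 and 2, 0.95 in vehicle and 0.90 in MAM arrays, and 0.92 without the 2 arrays farthest from the median of Tph2. The array with the highest Tph2 deviation, MGMT.MAM.6.953, was 1.81 above its mean for Tph2, 0.97 above it for Slc6a4 and 0.81 above it for Slc18a2, the highest deviation of each. MGMT.VEH.6.305, with the lowest Tph2 deviation, had deviations of -1.57 for Tph2 and -0.86 for Slc6a4. Among 18185 genes outside the members that had a probe set of their own, 0 correlated with Tph2 more closely than Slc6a4 did.

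Ddc and Slc18a2, which serotonin neurons share with other monoamine neurons, moved with this pair. Tph2 correlated with Ddc at r = 0.79 (rho = 0.80, with 0.86 and 0.70 in the number sets) and with Slc18a2 at r = 0.76 (rho = 0.79, with 0.82 and 0.70), both with an adjusted permutation p of 4e-05. Slc6a4 correlated with Ddc at r = 0.74 and with Slc18a2 at r = 0.65, and Ddc with Slc18a2 at r = 0.59. Of the 18185 other genes, 1 was closer to Tph2 than Ddc was and 2 were closer than Slc18a2. These 5 pairs of Tph2 or Slc6a4 with each other, Ddc or Slc18a2, together with Th and Slc6a3, kept their call in all 12 alternative settings.

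The catecholamine genes were less tightly tied. Th correlated with Tph2 at r = 0.42 (rho = 0.40, adjusted permutation p = 0.00185) and with Slc6a3 at r = 0.39 (rho = 0.43, adjusted permutation p = 0.00155), and 154 other genes were closer to Tph2 than Th was. Slc6a3 correlated with Ddc at r = 0.58, with Slc18a2 at r = 0.56 and with Tph2 at r = 0.51. Its ties to Ddc and Tph2 lay in number set 1 (0.81 and 0.70) more than in set 2 (0.10 and 0.19), a difference that was not tested. Maob correlated with Slc18a2 (r = 0.67), Tph2 (r = 0.57), Maoa (r = 0.51) and Slc6a3 (r = 0.50). Maoa passed with Maob, Slc18a2 (r = 0.38) and Tph2 (r = 0.22). Of the genes outside the members, 1217 were closer to Maoa than Maob was, 3402 than Slc18a2 and 6729 than Tph2. None of the 8 Dbh pairs passed over all arrays, with r between 0.01 and 0.25. That result rests on Dbh 1459848_x_at alone. With the mean of each gene's probe sets, Dbh passed with Slc6a4 (r = 0.35, adjusted permutation p = 0.028) and Ddc (r = 0.36, 0.042). It then also passed with Maoa in the opposite direction (r = -0.29, 0.034). The Dbh pairs went opposite ways by agent, with r between -0.35 and -0.05 and none passing in vehicle arrays, and r between 0.27 and 0.54 in MAM arrays, where 5 passed (Maoa 0.54, Slc18a2 0.52, Slc6a3 0.51, Tph2 0.46 and Slc6a4 0.40). The difference between the agents was not tested. The r of each gene's deviations with the deviations of the index of 3' over 5' signal lay between -0.22 and 0.18. Deviations leave out the differences of the index between groups, so these r values do not cover them.

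**Figure D3:**
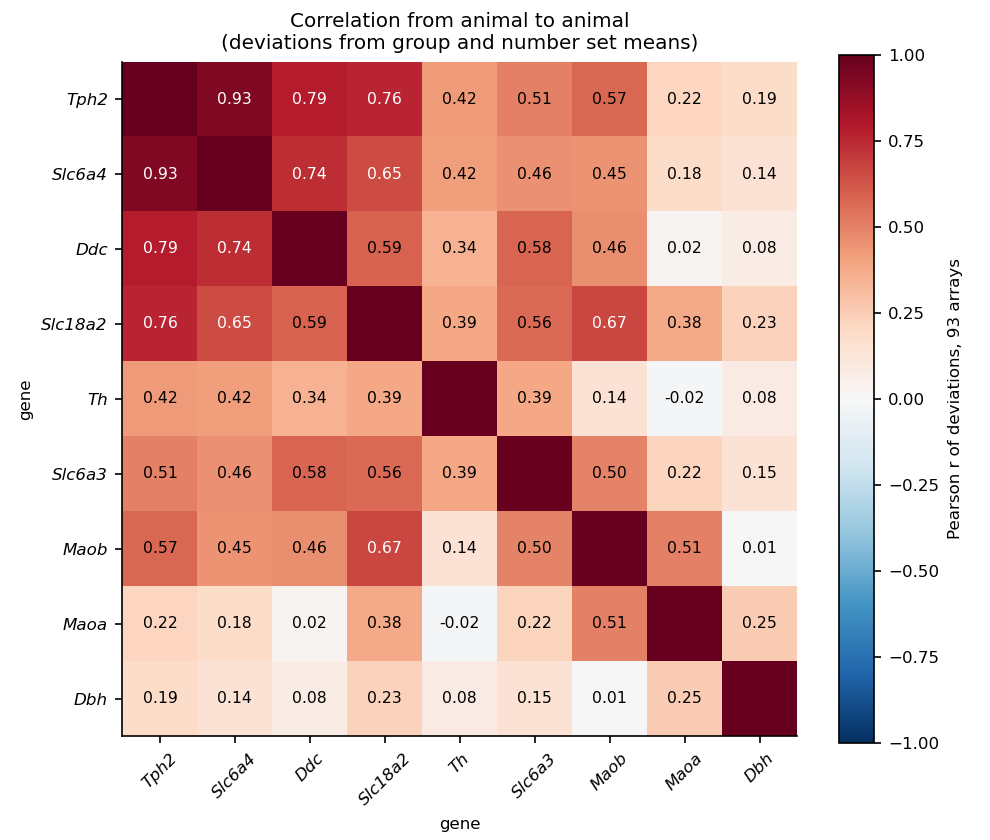
Pearson correlation of the deviations of each pair of the 9 genes over 93 arrays (both axes list the genes, colour gives r from -1 to 1). The block of Tph2, Slc6a4, Ddc and Slc18a2 runs from 0.59 to 0.93, and the values of Dbh with the others stay at or below 0.25.

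Genes that mark brain regions or neuron types were set against Tph2 and Th in the same way. For Tph2, 4.03% of the 18185 genes had r above 0.3. Of 12 hypothalamic genes 8 did (median r = 0.35), led by the neuropeptide gene Cartpt (r = 0.82) and by Gal (r = 0.64), Otp (r = 0.57) and Oxt (r = 0.53). Of 7 tetrahydrobiopterin genes 5 did (median 0.41, highest Pcbd1 at 0.62), and of 11 genes of midbrain dopamine neurons 5 (median 0.27, highest Sncg at 0.68, lowest Nr4a2 at -0.19). Of the 10 regulators and autoreceptors of serotonin neurons 3 did (median 0.24, highest Htr5b at 0.47), and of 22 hindbrain and spinal cord genes 4 (median 0.13, highest Slc6a5 at 0.43). Of 11 genes of thalamus and dorsal midbrain 3 did, led by the glutamate transporter Slc17a6 (r = 0.56). Genes of cortex and hippocampus ran the other way, with 0 of 10 above 0.3 and 5 below -0.3, against 1.53% of all genes (median -0.26, lowest Ccn3 at -0.49). The medians were -0.15 for striatum, -0.13 for cerebellum and 0.03 for olfactory bulb.

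Of all 18185 genes 6.86% had r above 0.3 with Th, and of the 7 olfactory bulb genes 5 did (median r = 0.51, highest Doc2g at 0.71, lowest Lhx5 at 0.19). For Th, 4 of 12 hypothalamic genes had r above 0.3 (highest Trh at 0.59), 1 of 11 midbrain dopamine neuron genes did (Sncg at 0.39), and 0 of 10 cerebellar genes did (median -0.29, lowest Car8 at -0.44). The liver list, whose levels in these arrays were low, had 10 of 12 genes with r above 0.3 with Th (median 0.46) and 8 of 12 with Tph2 (median 0.31), and its part in these correlations was not tested. For Slc6a3 the list with the highest median r was the hypothalamic one, with 7 of 12 genes above 0.3 (median 0.47) against 5.16% of all genes. For the neuron list, the numbers above 0.3 were 0 of 6 with Tph2 and 1 of 6 with Th.

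**Figure D4:**
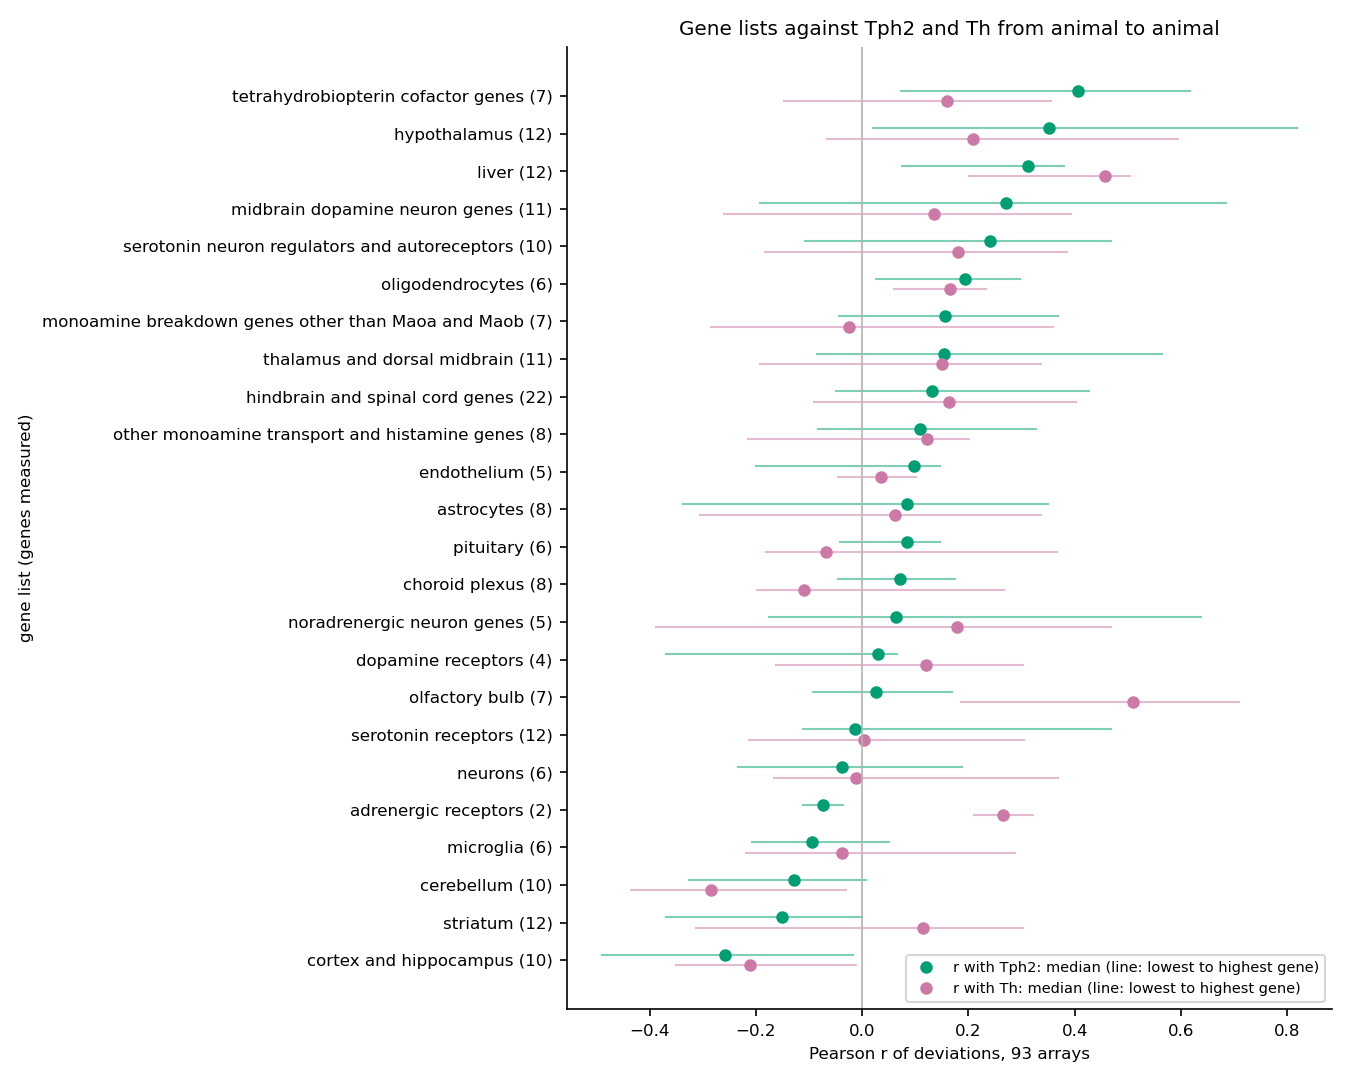
Pearson correlation of the genes of each list with Tph2 (green) and with Th (pink) over 93 arrays (x axis), with points at the list's median and lines from the lowest to the highest gene (y axis gives the lists and the number of genes measured). The olfactory bulb genes have a median of 0.51 with Th and 0.03 with Tph2, and the hypothalamic genes a median of 0.21 with Th and 0.35 with Tph2.

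For each gene, the 3 genes outside the members with the highest r over the 93 arrays were listed as a description of likeness. Tph2 and Slc6a4 had the same 3, Cartpt (r = 0.82 and 0.81), the secretory granule gene Resp18 (0.77 and 0.72) and A930009L07Rik (0.76 and 0.70). Those of Ddc were Agt, the angiotensinogen gene (0.85), Itih3 (0.81) and A930009L07Rik (0.79), and those of Slc18a2 were AW551984 (0.79), Gprasp2 (0.76) and Arhgap24 (0.72). Th was most like Nmb, which encodes the peptide neuromedin B (0.735), Pcbp3 (0.72) and Doc2g (0.71). Slc6a3 was most like Dlk1 (0.75) and the hypothalamic neuropeptide genes Pmch (0.74) and Hcrt (0.72). Spearman's rho was 0.69 for Dlk1 and lower for Pmch (0.42) and Hcrt (0.50). Maoa was most like the caveolin gene Cav1 (0.80), Serpinb1a (0.77) and Prrg1 (0.77), Maob like Shox2 (0.70), Qpct (0.67) and Gm4988 (0.67), and Dbh like 2010109A12Rik (0.65), Mettl21a (0.64) and 4933432I09Rik (0.60).

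**Figure D5:**
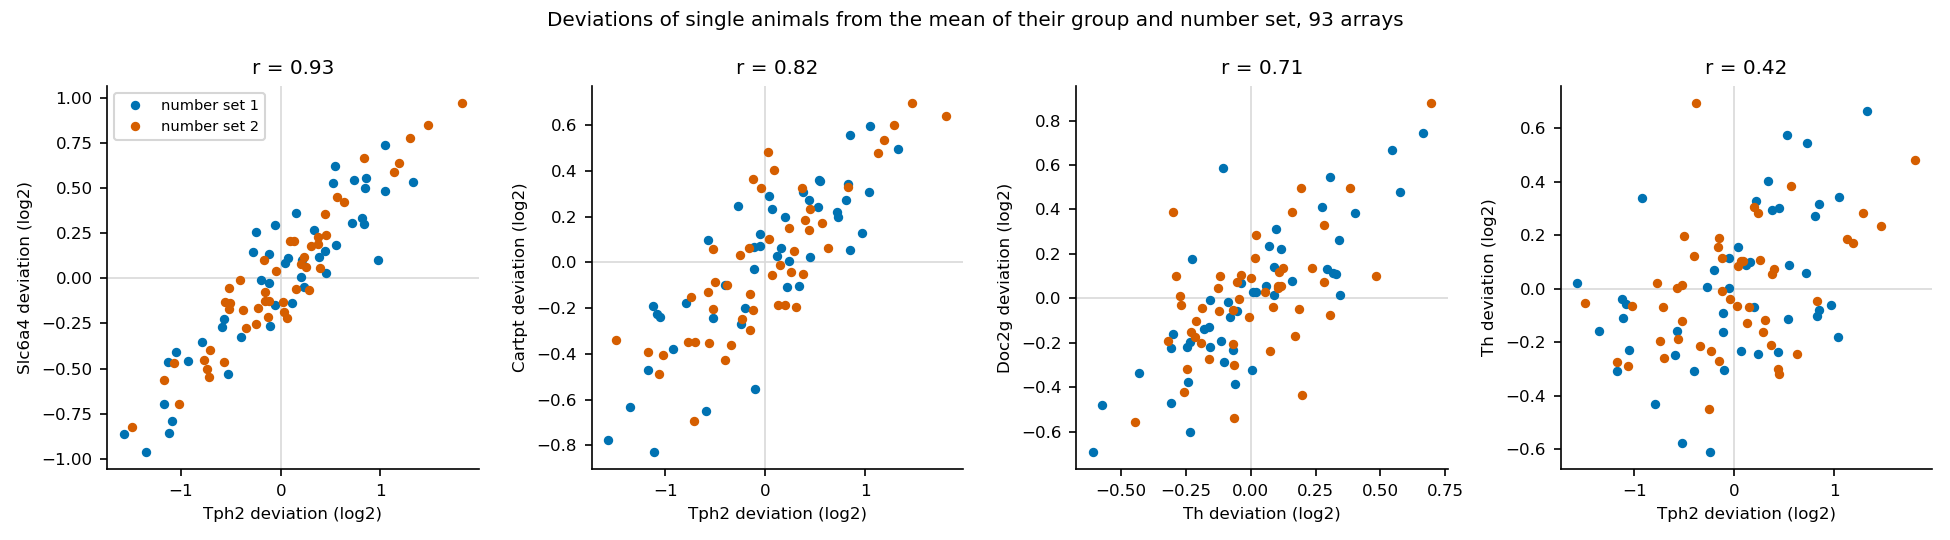
Deviations of single animals from the mean of their group and number set (log2, both axes) for Tph2 against Slc6a4, Tph2 against Cartpt, Th against Doc2g and Tph2 against Th, with number set 1 in blue and number set 2 in orange. The points of Tph2 and Slc6a4 lie along a line (r = 0.93), and those of Tph2 and Th form a broad cloud (r = 0.42).

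Cartpt, the closest outside gene to Tph2, was also lower in Mgmt-/- than in wt brain with MAM at 48 hr (-1.03 ± 0.21, adjusted p = 0.00113, limma). Slc17a6 and the dopamine neuron gene Sncg, also among the genes nearest to Tph2 in their lists, were lower too. Their differences were not confined to 48 hr with MAM. Slc17a6 was also lower at 6 hr (-0.94 ± 0.18 with vehicle, -1.25 ± 0.18 with MAM) and 24 hr (-0.69 ± 0.13 and -0.74 ± 0.13). Sncg was also lower at 6 hr with MAM (-0.83 ± 0.24). The hypothalamic list as a whole had 2 of 12 genes lower at that time, with a median difference of -0.10, and the hindbrain and spinal cord list had 1 of 22 higher, with a median of 0.02. Whether the tissue pieces held unequal shares of these regions was not tested.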

How the data were processed

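Values are the deposited log2 values, 1 per probe set and array, which the authors computed from the scanned arrays with the RMA method of the affy package at its default settings. The sources used here do not say whether all arrays were normalized together. The values were used as deposited, and 0 columns belonged to other series. The number of arrays limits the precision. Samples were grouped by genotype, agent and time, and p values measure the spread between animals.

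Using limma 3.58.1 (R 4.3.3), a model of genotype, treatment, genotype by treatment and number set was fitted to each time point, leaving out probe sets with a joint p of the number-set interactions at or below 0.15 in an ordinary linear model. P values were adjusted by Benjamini-Hochberg over all probe sets kept, and calls needed an adjusted p under 0.05 and a fold over 1.3. These terms and thresholds follow the study's methods, with the moderated test in place of the ordinary one. The 16 groups and the number sets were tested in 1 fit of 93 arrays without the filter. Pairs used the brightest probe set of each gene and 100000 two-sided resamples of animals within group and number set, adjusted over 36 pairs. The calculations were tested on simulated data. Python 3.11.15, numpy 2.4.6, pandas 2.3.3, scipy 1.17.1 and matplotlib 3.10.9 were used. Coordinates and promoter windows came from RefSeq tables of GRCm38.p6, where 9 of the 10 genes had a window.

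The genes named are all members, Mgmt, the 3 genes with the highest r per member, the highest and lowest genes of each list against Tph2 and Th, and list genes called. In the comparisons of genotype and agent, a list gene was called if any of its probe sets was, and its called probe set with the largest difference is given. List medians, correlations and number set differences used the brightest probe set of each gene. Members and lists were chosen with earlier results of these data known. Gal, Otp and Oxt were named after their values were seen. The alternatives were no filter, MGMT.MAM.168.343 kept, an ordinary linear model, no fold threshold, cyclic loess normalization, removal of dim probe sets (mean under 5), the index of 3' over 5' signal in the fit, no number set term, and leaving out each array. For the pairs they were group centring alone, Spearman's rho, the index, cyclic loess, vehicle or MAM arrays alone, each number set alone, the mean of a gene's probe sets, and removal of the first principal component. Leaving out the closest pair of arrays, and the index without the filter, were added after seeing the data.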

Additional observations from a re-analysis of the deposited data

Results flagged for a closer look

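In 14 of 208 groups of values (1 probe set in 1 group of 5 or 6 arrays) the highest or lowest array stood apart from the rest by its gap relative to the range. Chance gives about 1 in 20 groups, or 10.4 here. The dopamine transporter Slc6a3 had 4 of them, each a low array in Mgmt-/- brain, at 5.31 in MGMT.VEH.168.319, 5.36 in MGMT.VEH.6.903, 5.52 in MGMT.MAM.6.327 and 6.37 in MGMT.MAM.48.337. MGMT.VEH.168.319 was also lowest for Ddc, at 6.87. MGMT.MAM.48.337 was also lowest for Maoa 1442676_at, at 5.42, and highest for Dbh 1450670_at, at 5.80. The other Dbh values were 5.33 in WT.VEH.24.111 (1447592_at), 4.78 in MGMT.MAM.168.967 (1450670_at), 4.71 in WT.MAM.24.133 (1450670_at) and 6.70 in WT.MAM.48.137 (1459848_x_at), each the lowest of its group. Maoa 1428667_at was low in MGMT.MAM.168.971, at 7.94. Slc18a2 was high in WT.MAM.168.145, at 6.68, and Slc6a4 was high in WT.VEH.24.711, at 6.145.

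The change with MAM at 48 hr differed between the genotypes in the interaction test of limma for Tph2 (-2.22 on the log2 scale) and for Slc6a4 (-1.28).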

How the results depend on the processing

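Over the settings other than leaving out an array, 61 counts of calls stayed within 1.5 times the reported count and 10 did not. Removal of dim probe sets took out Tph2 (mean 4.58) and Ddc 1430591_at (mean 3.99), so that setting held no check of the Tph2 results. With the index of 3' over 5' signal in the fit, the interaction fell from 2 calls to 0, the genotype difference with MAM from 7 to 0 (0 also without the filter) and the differences among the 16 groups from 5 to 1. The ordinary linear model gave 0 calls for the interaction. The genotype difference with vehicle rose from 0 to 3 calls without the filter, 3 without the number set term and the filter, and 2 without the filter but with the index. The number set difference rose from 1 to 2 without a fold threshold, and the pairs that vary together fell from 23 to 7 in number set 2 alone. The cause of these changes was not tested. With MGMT.MAM.168.343 kept, r was -0.23 for Slc6a3 and Maob and -0.03 for Maoa and Maob, against 0.50 and 0.51 without it. For the 36 single pairs over 12 settings, 374 values stayed on their side of the threshold, 28 of them with the sign of r changed in pairs that did not pass, 35 lost the call, 21 gained one and 2 reversed.

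Leaving out each array in turn gave 0 to 1 calls for MAM in Mgmt-/- brain (1 without MGMT.VEH.48.317, Slc6a4, or MGMT.MAM.24.957, Maoa), 0 to 1 in wt brain (1 without WT.VEH.48.115, Tph2), 1 to 3 for the interaction (3, with Maoa, without WT.VEH.48.115 or MGMT.VEH.48.317), 5 to 9 for the genotype difference with MAM and 0 for that with vehicle. At 48 hr the call of Slc18a2 was lost without MGMT.MAM.48.337 and those of Ddc and Dbh without MGMT.VEH.48.317, and at 168 hr that of Maoa was lost without WT.MAM.168.143, WT.MAM.168.747, MGMT.MAM.168.345 or MGMT.MAM.168.971. No paired analysis was possible because every animal number occurs in 1 group alone. Tph2 is dim, above 36.4% of all probe sets on average, and detection calls were not used here.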
